A study of Mus musculus with 10 samples.

Results

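The genes described here are 10 that serve the fusion of macrophages into multinucleated cells or mark osteoclasts, the bone-resorbing cells that such fusion yields: Dcstamp, Ocstamp, Tm4sf19, Atp6v0d2, Ctsk, Acp5, Mmp9, Nfatc1, Oscar and Itgb3. They were found by symbol in a deposited table of 57010 mouse gene identifiers, and each symbol matched 1 row. The list was chosen from genotype differences already known in these data, in which Dcstamp and Tm4sf19 stood among the lowest genes of WASp-deficient cells. Genotype differences of the 10 genes are therefore given as a description: no p-value is printed for them, and where a count of genes past a threshold is given, nothing is read from it.

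Libraries were made from bone marrow-derived macrophages, obtained by culturing marrow precursors from mouse femurs for 7 days with 20 ng/mL of macrophage colony-stimulating factor (M-CSF). There were 4 groups: wild-type (WT) cells left unconfined (2 libraries) or confined (3 libraries), and cells of mice lacking WASp (WKO) left unconfined (2 libraries) or confined (3 libraries). WASp, the product of Was, activates the Arp2/3 complex to build branched actin in blood cells. Confinement lasted 1 h under a ceiling of silicone pillars at a height of 3 µm. The growth protocol names no RANKL, the cytokine that drives osteoclast formation. Strain, age and number of mice, and how unconfined cells were handled, are not given in the sources used here, nor whether replicates came from separate mice or cultures, and p-values therefore measure the spread between these libraries, which may be technical.

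Osteoclasts arise when M-CSF and RANKL act together on marrow macrophages. RANKL binds the receptor RANK (Tnfrsf11a), which signals through Traf6, NF-κB and Fos, while receptors such as Oscar signal through adaptors with ITAM motifs and calcium. Both routes meet on Nfatc1, a transcription factor that turns on fusion proteins and the enzymes of bone resorption. Macrophages and osteoclasts attach through podosomes, actin structures that need WASp.

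Recovered depth was between 13295701 and 19329908 reads per library. Was had between 92 and 2053 reads, and its normalized read count was 96.9 to 154 in the 5 WKO libraries against 1308 to 1649 in the 5 WT libraries. All 12 macrophage markers listed passed the filter on low values. So did 12 of 12 markers of neutrophils and their progenitors and 14 of 15 stromal markers, so passing does not identify the cells. The macrophage markers summed to between 205905 and 241524 in WT and between 282123 and 353445 in WKO libraries. Of them, Lyz2 alone had a mean of 146861 over the 10 libraries. The calcitonin receptor gene Calcr, an osteoclast marker added after its value was seen, had 0 reads in every library. By contrast, 14 of 15 listed genes of resorption, acid and lysosome export beyond the 10 genes passed the filter. Markers of neutrophils and their progenitors summed to between 7031 and 30257 in WKO libraries and between 2570 and 10942 in WT libraries. Stromal markers ranged from 1173 to 12355 in WKO libraries, highest in WKO confined replicate 5, and from 280 to 2207 in WT libraries.

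Promoters are shown because several of the genes were low together in WKO cells. The RefSeq table of 300-base promoters (GRCm38.p6) matched 4 of the 10 genes: Tm4sf19, Ctsk, Acp5 and Oscar. The 250 bases before the start site of Tm4sf19 (chr16:32400256-32400505, plus strand) and of Ctsk (chr3:95498960-95499209, plus strand) follow, 5′ to 3′, as the 2 of these whose levels were lower in every WKO library. Capitals mark matches to the core letters of AP-1 (TGANTCA), NFAT (GGAAAA), PU.1 (GAGGAA) and MITF (CACGTG or TCATGTG), searched on both strands.
Tm4sf19: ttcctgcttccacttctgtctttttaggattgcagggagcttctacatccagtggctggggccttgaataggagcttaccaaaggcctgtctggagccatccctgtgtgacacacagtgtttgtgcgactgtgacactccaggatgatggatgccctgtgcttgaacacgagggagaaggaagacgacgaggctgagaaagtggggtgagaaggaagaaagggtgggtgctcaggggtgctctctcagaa
Ctsk: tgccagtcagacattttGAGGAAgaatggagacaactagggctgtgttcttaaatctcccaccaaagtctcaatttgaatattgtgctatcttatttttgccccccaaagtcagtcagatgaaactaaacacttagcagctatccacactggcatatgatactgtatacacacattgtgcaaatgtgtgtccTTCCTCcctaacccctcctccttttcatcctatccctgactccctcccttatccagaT

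The Tm4sf19 stretch held none of these letters. The Ctsk stretch held PU.1 letters at 233 to 228 bases and, on the other strand, at 58 to 53 bases before the start. Its last capital is the first base of an NFAT match on the other strand that runs across the start site. Over the 32851 promoters of the table, 28.3% held the PU.1 letters, 23.4% the NFAT letters, 7.81% the AP-1 letters, 7.15% CACGTG and 3.77% TCATGTG. The matches are a description of letters only. The RefSeq start of Ctsk lies upstream of the GENCODE start given with its levels.

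Levels are given as normalized read counts, which are reads divided by 1 size factor per library. Between genes they are compared per kilobase (kb) of exon. On that scale Atp6v0d2 was far above the other 9 genes, with a mean of 4324 per kb over the 10 libraries, higher than 99.1% of tested genes. Mmp9 followed at 609 per kb, Acp5 at 291, Tm4sf19 at 211, Ctsk at 159.5, Nfatc1 at 123 and Itgb3 at 87.9. Dcstamp stood at 64.5 per kb, below the median of 80.7 over the 12315 tested genes with a known length. Ocstamp at 3.36 and Oscar at 0.36 per kb were near or below the limit of detection. From Mmp9 down to Dcstamp each gene overlapped its neighbors in its range over libraries, so that order is not firm, while the libraries of Atp6v0d2 did not overlap those of any other gene on the list.

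**Figure D1:**
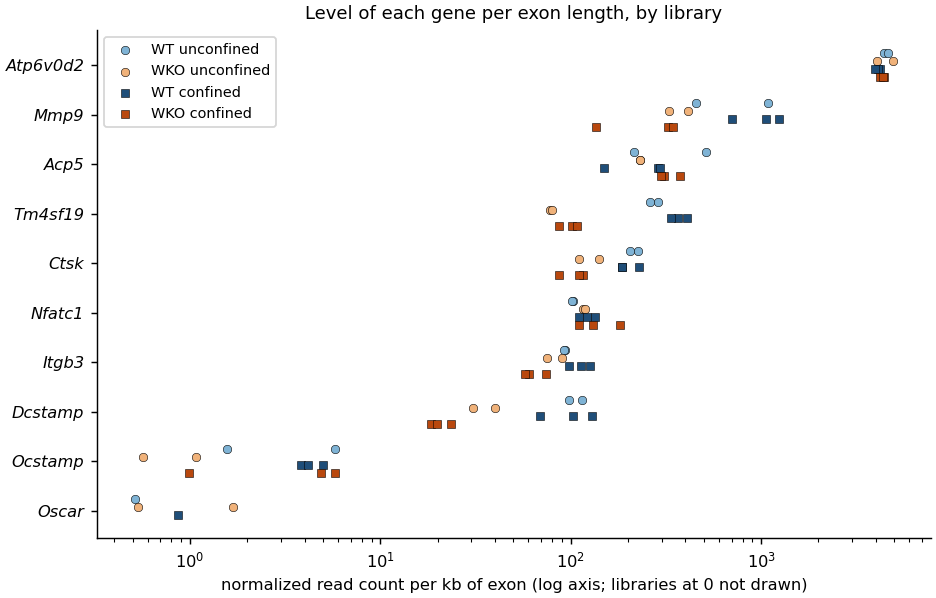
Normalized read count per kb of exon (log axis) for each gene, 1 point per library, colored by group. Atp6v0d2 lies above all others, and Ocstamp and Oscar lie lowest; libraries at 0 are not drawn.

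The fusion genes were examined first. Dcstamp, Tm4sf19 and Ocstamp encode membrane proteins of fusing macrophages; Dcstamp is needed for osteoclasts and foreign-body giant cells to become multinucleated, and Ocstamp is its relative. In WKO cells Dcstamp and Tm4sf19 were between 20.5% and 33.4% of the WT mean, in unconfined and confined cells alike, and every WKO library was below every WT library. Ocstamp was too low to place.

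Dcstamp (ENSMUSG00000022303, chr15:39745930-39760938, GENCODE M21 on GRCm38) had normalized read counts of 259 and 304 in WT unconfined libraries and 81.9 and 106 in WKO unconfined libraries. In confined cells it was 274, 184 and 345 in WT and 49.4, 52.6 and 62.3 in WKO. The lowest WT library was thus above the highest WKO library, and the confined WKO libraries were the lowest of all. The WT mean was 2.99-fold the WKO mean in unconfined cells and 4.89-fold in confined cells. The log2 difference, WKO minus WT, was -1.58 (SE 0.295) and -2.23 (SE 0.241).

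Tm4sf19 (ENSMUSG00000079625, chr16:32400506-32408227) belongs to the transmembrane 4 superfamily. It had 362 and 329 in WT unconfined, 97.7 and 100.1 in WKO unconfined, 459, 425 and 513 in WT confined, and 128, 109 and 135 in WKO confined libraries. Replicates lay close together, and the genotypes were separated by a wide gap in both conditions. The WT mean was 3.49-fold the WKO mean in unconfined and 3.74-fold in confined cells, with log2 differences of -1.79 (SE 0.189) and -1.90 (SE 0.155).

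Ocstamp (ENSMUSG00000027670, chr2:165393760-165400405) had between 2 and 27 reads per library. Its normalized read counts were 5.70 and 21.1 in WT unconfined, 3.95 and 2.06 in WKO unconfined, 18.2, 14.1 and 15.3 in WT confined, and 21.2, 17.9 and 3.59 in WKO confined libraries. WKO confined replicate 5 and WKO unconfined replicate 3 were at or under the detection floor of 3 reads. The confined groups overlapped, and the log2 differences had wide errors (-1.64, SE 0.913, and -0.43, SE 0.745).

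**Figure D2:**
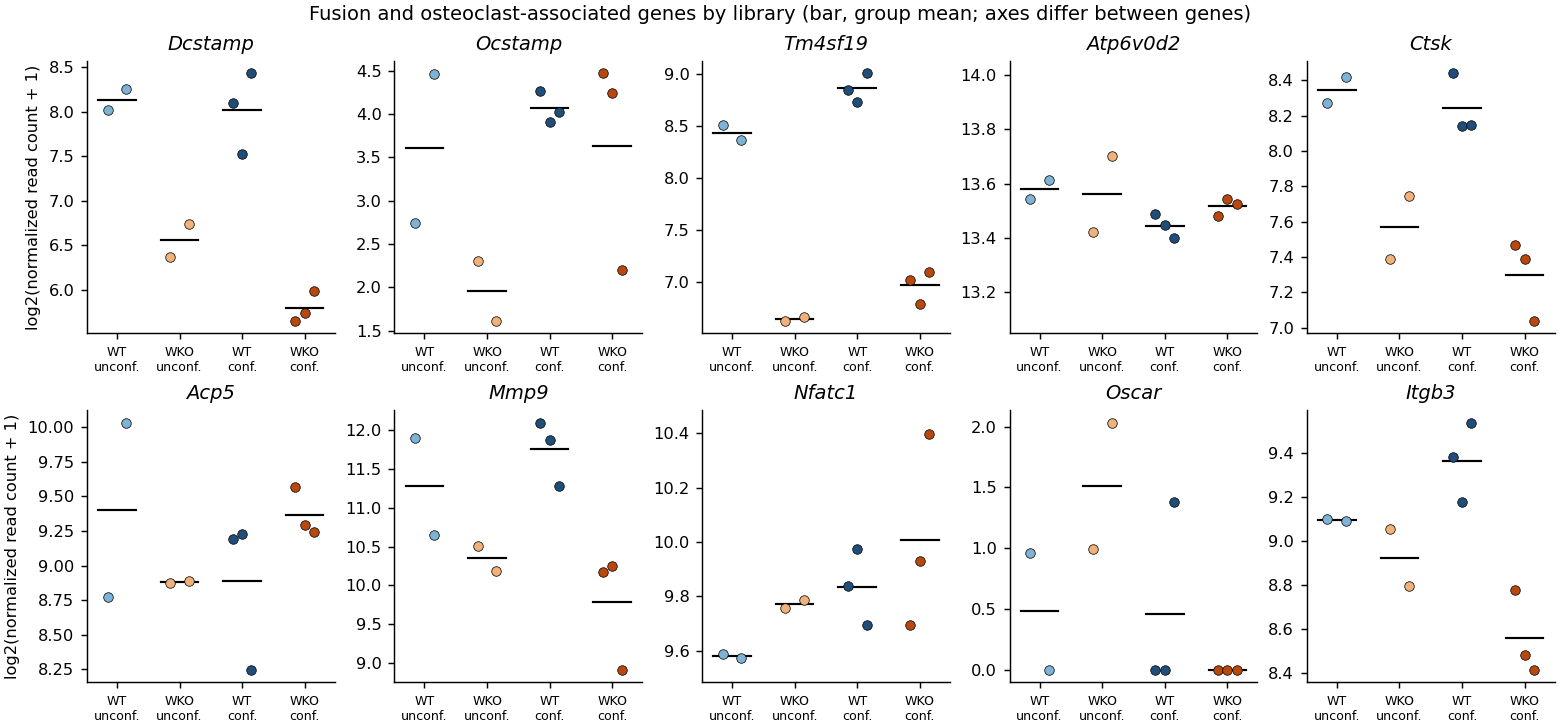
Level of each gene as log2(normalized read count + 1), 1 point per library, with the group mean as a bar; the vertical axes differ between genes. Dcstamp, Tm4sf19, Ctsk, Mmp9 and Itgb3 are lower in all 5 WKO libraries than in all 5 WT libraries, whereas Atp6v0d2 varies little.

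Genes of resorption came next. Atp6v0d2, a subunit of the proton pump (vacuolar ATPase) that acidifies lysosomes and the resorption pit and also takes part in fusion, was alike in both genotypes. The proteases Ctsk and Mmp9 were lower in WKO cells, and Acp5, the tartrate-resistant acid phosphatase used to stain osteoclasts, showed no common direction.

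Atp6v0d2 (ENSMUSG00000028238, chr4:19876841-19922605) had 11947 and 12534 in WT unconfined, 10976 and 13330 in WKO unconfined, 11500, 11170 and 10796 in WT confined, and 11442, 11948 and 11794 in WKO confined libraries. The highest library was 1.23-fold the lowest. The genotype difference was -0.02 (95% interval -0.27 to 0.24, log2) in unconfined and 0.07 (-0.14 to 0.28) in confined cells. Its ubiquitous counterpart Atp6v0d1 was at 1810 per kb over the 10 libraries, with genotype differences of -0.17 (SE 0.128) and -0.02 (SE 0.104).

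Ctsk (ENSMUSG00000028111, chr3:95499256-95509362) encodes cathepsin K, the collagen-degrading protease of osteoclasts. It had 308 and 342 in WT unconfined, 167 and 214 in WKO unconfined, 346, 282 and 282 in WT confined, and 176, 166 and 131 in WKO confined libraries. No WKO library reached the lowest WT library, and the lowest value was in WKO confined replicate 5. The WT mean was 1.71-fold and 1.92-fold the WKO mean, and the log2 differences were -0.78 (SE 0.216) and -0.94 (SE 0.176). Stromal cells can also express Ctsk. The stromal sum was 12355 in that library and 1173 to 4080 in the other 4 WKO libraries; the part of stromal cells in the Ctsk levels was not tested.

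Mmp9 (ENSMUSG00000017737, chr2:164940780-164955850) encodes a secreted gelatinase of osteoclasts, macrophages and neutrophils. Its levels were 3838 and 1605 in WT unconfined, 1458 and 1162 in WKO unconfined, 4391, 3757 and 2495 in WT confined, and 1153, 1220 and 482 in WKO confined libraries. The genotypes nearly met in unconfined cells, where WT replicates differed widely, and were well apart in confined cells. The log2 differences were -0.93 (SE 0.457) and -1.97 (SE 0.373). Neutrophil markers summed to 6997 and 10942 in WT unconfined and 30257 and 25142 in WKO unconfined libraries, and to 6383, 7989 and 2570 in WT confined and 22022, 28283 and 7031 in WKO confined libraries. In confined cells these sums overlapped between genotypes, and the confined library with the lowest Mmp9 of each genotype was also the lowest in neutrophil markers. In unconfined cells the lower Mmp9 value went with the lower sum in WKO but with the higher sum in WT. Their part in the Mmp9 levels was not tested.

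Acp5 (ENSMUSG00000001348, chr9:22126727-22135711) had 436 and 1048 in WT unconfined, 468 and 472 in WKO unconfined, 584, 599 and 303 in WT confined, and 758, 625 and 606 in WKO confined libraries. The WT replicates lay far apart. In unconfined cells both WKO libraries lay between the 2 WT libraries, and in confined cells all WKO libraries lay above all WT libraries. The log2 differences were -0.52 (SE 0.376) and 0.48 (SE 0.307). Its exons share 137 bases with 6530413G14Rik on the opposite strand, and since the use of strand in counting is not given in the sources used here, its count is uncertain to that extent.

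The regulator and the receptors were examined last. Nfatc1, which stands upstream of the other genes, had slightly higher means in WKO cells, but in confined cells the genotypes overlapped. Oscar was too low for any direction. Itgb3, the integrin β3 chain through which osteoclasts and podosomes hold vitronectin and osteopontin, was lower.

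Nfatc1 (ENSMUSG00000033016) had 768 and 760.1 in WT unconfined, 865 and 883 in WKO unconfined, 914, 1004 and 827 in WT confined, and 828, 975 and 1348 in WKO confined libraries. WKO libraries were slightly above WT in unconfined cells and overlapped WT in confined cells. The genotype differences were 0.19 (95% interval -0.23 to 0.62, log2) and 0.17 (-0.18 to 0.52). The highest value came from WKO confined replicate 5, the library with the highest stromal sum; the part of other cells in this value was not tested. The other WKO confined libraries, at 828 and 975, lay within the WT confined range of 827 to 1004. Over 20 alternatives the confined difference ran from -0.05 to 0.33, and 18 kept its direction, so no direction is read from it.

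Oscar (ENSMUSG00000054594, chr7:3609813-3616157), an activating receptor that binds collagen, was practically silent. It had 1 and 0 reads in WT unconfined, 1 and 3 in WKO unconfined, 0, 0 and 2 in WT confined, and 0 in each WKO confined library. All libraries were at or under the floor of 3 reads, and it did not pass the filter on low values, which the other 9 genes passed.

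Itgb3 (ENSMUSG00000020689, chr11:104608000-104670476) had 548 and 545 in WT unconfined, 531 and 443 in WKO unconfined, 667, 577 and 743 in WT confined, and 438, 356 and 340.3 in WKO confined libraries. The genotypes lay close together in unconfined cells and well apart in confined cells, without overlap in either. The log2 differences were -0.17 (SE 0.178) and -0.81 (SE 0.146). Its partner Itgav, which encodes the αv chain, did not pass the limma threshold in either condition (-0.59, SE 0.356, adjusted p 0.671; 0.25, SE 0.290, adjusted p 0.738).

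**Figure D3:**
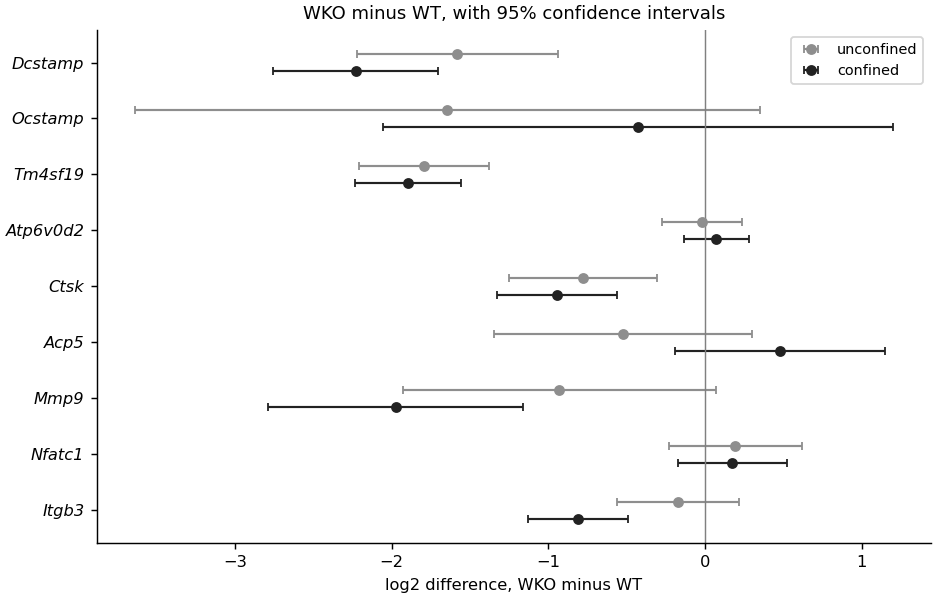
Log2 difference between WKO and WT libraries for the 9 genes that passed the filter, in unconfined (grey) and confined (black) cells; points are limma estimates and bars 95% confidence intervals. Dcstamp and Tm4sf19 lie between -1.58 and -2.23, while Atp6v0d2 and Nfatc1 lie close to 0.

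Counted together, 5 of the 9 genes (Dcstamp, Tm4sf19, Ctsk, Mmp9 and Itgb3) were lower in all 5 WKO libraries than in all 5 WT libraries, as were 3.33% of the 12455 tested genes; none was higher in all. As a description, 1 of 9 (Tm4sf19) lay past the limma adjusted threshold of 0.05 in unconfined cells and 5 of 9, the same 5 genes, in confined cells. Of all tested genes 0.145% passed in unconfined cells (0.0963% lower) and 2.59% in confined cells (1.2% lower). The choice of genes rested on these contrasts, so the counts are no test of them. The median log2 difference of the 9 was -0.78 and -0.81, against 0.002 and 0.004 over all tested genes. The count in confined cells was 2 without WT confined replicate 2 and 3 without WT confined replicate 3 or 6. Over all tested genes, 58, 80 and 141 were called without replicates 2, 3 and 6, against 322 with all libraries. In unconfined cells the count of listed genes was 2, with Dcstamp added, without WKO confined replicate 5. In that fit 141 of all tested genes were called, against 18 with all libraries. In bulk libraries fewer cells of a type and less RNA per cell cannot be told apart.

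The effect of confinement was not used to choose the list and was tested. After 1 h, 0 of the 9 genes passed the limma threshold in WT cells, where 1.16% of tested genes did, and 0 passed in WKO cells, where 1.72% did. At an unadjusted p under 0.05 there was 1 gene in WT (Tm4sf19), where 12.2% of tested genes were, and 2 in WKO (Dcstamp and Itgb3), where 14.1% were. edgeR's quasi-likelihood test and DESeq2 also called 0 in each genotype. With array weights 3 passed in WKO cells (Dcstamp, Ocstamp and Itgb3), as did 13.9% of tested genes.

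Tm4sf19 was higher in every confined than in every unconfined library of its genotype, with log2 differences of 0.43 in WT (95% interval 0.05 to 0.80, limma adjusted p 0.341) and 0.32 in WKO (-0.06 to 0.70, limma adjusted p 0.427). Dcstamp was lower in all 3 confined WKO libraries than in the 2 unconfined ones, at -0.76 (-1.35 to -0.18, limma adjusted p 0.22), whereas WT libraries overlapped (-0.12, limma adjusted p 0.906). Itgb3 was higher in each confined WT library than in the unconfined ones (0.27, -0.09 to 0.63, limma adjusted p 0.56) and lower in each confined WKO library (-0.37, -0.72 to -0.01, limma adjusted p 0.339). Nfatc1 (higher) and Atp6v0d2 (lower) in WT and Acp5 (higher) in WKO also separated without overlap. The share of all tested genes that separated by confinement was not counted, so nothing is read from such separation. Ocstamp had the widest interval, from -0.14 to 3.50 around 1.68 in WKO cells (limma adjusted p 0.391). For Atp6v0d2 the intervals kept any change within -0.37 to 0.10 in WT and -0.28 to 0.19 in WKO. Ctsk, Acp5, Mmp9 and Nfatc1 had adjusted p between 0.569 and 0.882 in the 2 genotypes. Oscar, at or under the floor in every library, gave no value to compare.

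**Figure D4:**
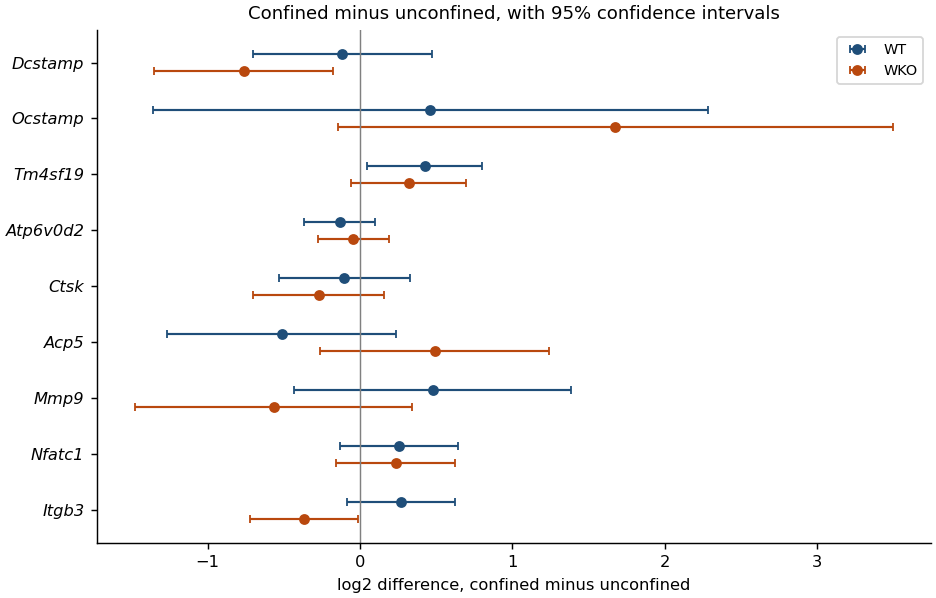
Log2 difference between confined and unconfined libraries for the 9 genes that passed the filter, in WT (blue) and WKO (orange) cells; points are limma estimates and bars 95% confidence intervals. None passed the adjusted threshold; Itgb3, Mmp9 and Acp5 lie on opposite sides of 0 in the 2 genotypes.

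The difference between the genotypes in response to confinement was tested as an interaction, which rests on the same libraries as the genotype differences. None of the 9 genes passed with limma, edgeR or DESeq2, and neither did any of the 12455 tested genes (0%). At an unadjusted p under 0.05 there was 1 of the 9, and 2.07% of tested genes. This was Itgb3, with an interaction of -0.64 (SE 0.230, limma adjusted p 0.999). Mmp9 (-1.04, SE 0.589) and Acp5 (1.00, SE 0.486) had larger values with wider errors, and the same adjusted p of 0.999.

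Genes whose course over the 10 libraries was most like Dcstamp and Tm4sf19 were ranked by the root mean square difference between log2 profiles, each centred on its own mean; the genotype gap on which the list was chosen is part of these profiles, so the ranking is a description. For Dcstamp, whose own spread about its mean was 1.05 on the log2 scale, the nearest were ENSMUSG00000103847 at 0.42, Ptchd1 at 0.44, Nes at 0.46 and Tm4sf19 at 0.47, against a median of 1.08 over tested genes. For Tm4sf19, with a spread of 0.95, they were Nes at 0.25, ENSMUSG00000103847 at 0.26, Dio2 at 0.31 and Chst11 at 0.31, against a median of 0.99. Nes, the intermediate filament gene nestin, had means of 1711 and 2222 in WT and 495 and 513 in WKO (unconfined and confined). ENSMUSG00000103847 has no symbol in the table.

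The wider pathway was described with 8 lists of 108 genes, of which 101 passed the filter. The lists were chosen with earlier results of these data known, so their counts and medians are a description. Between genotypes 0 of them were higher and 1 lower in unconfined cells, and 1 higher and 3 lower in confined cells. Of all tested genes 0.0482% were higher and 0.0963% lower in unconfined cells, and 1.38% higher and 1.2% lower in confined cells. The median difference over the 101 genes was -0.10 in unconfined and -0.03 in confined cells.

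Of 16 tested genes of RANK signalling, 0 passed between genotypes. The receptor gene Tnfrsf11a had a mean of 2046 with an SD of 159 for WT and 1643 with an SD of 5.80 for WKO unconfined cells (n = 2 each), and of 2457 with an SD of 215 and 1792 with an SD of 359 in confined cells (n = 3 each). Its log2 differences were -0.31 and -0.47 (limma adjusted p 0.621 and 0.0989). The ligand gene Tnfsf11 had at most 7 reads in any library. After confinement 2 of the 16 rose in WT, where 0.891% of tested genes did, and 5 in WKO, where 1.49% did. None of the 16 passed as lower, and the list medians were 0.28 and 0.41 against -0.007 and -0.01 over all genes. Because of how the list was chosen, these counts and medians are no test of RANK signalling. Fosl2 rose by 1.52 in WT and 2.26 in WKO (limma adjusted p 0.0026 and 0.000189), and Fos by 1.56 and 2.27 (0.0463 and 0.0048). Jun (1.76) and Relb (1.40) rose in WKO (limma adjusted p 0.0116 and 0.0307). Nfatc1, which acts downstream of Fos in osteoclast formation, did not pass in either genotype.

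Of 14 tested genes of ITAM and calcium signalling, 0 passed in any contrast. Trem2, a receptor that pairs with the adaptor Tyrobp, was high and even, at means of 13358 and 13614 in unconfined and 12024 and 12245 in confined cells (WT and WKO). Of 14 tested fusion and membrane partners, such as Cd44, Cd47 and Cd9, 0 passed in any contrast, with genotype medians of -0.07 and -0.16. Their genotype differences were not all small, from -0.63 to 3.83 in unconfined and from -0.47 to 2.56 in confined cells. Neither the 8 activating nor the 6 restraining transcription factors held a gene that passed between genotypes. Of the restraining ones, Id2 rose after confinement by 1.19 in WT and 1.75 in WKO (limma adjusted p 0.0486 and 0.00482).

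Adhesion genes of the sealing zone, the actin ring that osteoclasts press against bone, held 1 of the 1 and 2 of the 3 lower pathway genes. Vcl, which encodes vinculin, had means of 2416 and 2523 in WT and 1261 and 1223 in WKO (unconfined and confined; log2 differences -0.94 and -1.05, limma adjusted p 0.0346 and 0.00141). Tln1, which encodes the integrin activator talin, was lower in confined WKO cells (-0.66, limma adjusted p 0.0337). The remaining genes of this list did not pass; its medians were -0.09 and -0.12 over 13 genes.

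Of 14 tested resorption genes beyond the listed ones, only Mmp14 passed, and it was higher in confined WKO cells: 575 ± 378 against 120 ± 16.8 (SD, n = 3 each; log2 difference 2.07, SE 0.374, limma adjusted p 0.016). The WKO libraries were at 382, 333 and 1011, and without the highest, replicate 5, their mean was 357 and the log2 difference 1.57. The call was lost without WT confined replicate 2 or 3. Mmp14 is also made by stromal cells, whose markers summed to between 1173 and 12355 in the confined WKO libraries and between 280 and 954 in WT; their part in the result was not tested. Of 16 tested vacuolar ATPase subunits other than Atp6v0d2, Atp6v1h passed as lower in confined WKO cells (-0.49, limma adjusted p 0.0434). In unconfined cells 0 of the 16 passed. In both conditions 15 of these 16 subunits were below 0, against 49.7% and 49.4% of all tested genes. Their medians were small, at -0.14 and -0.15. Atp6v0d2 was at -0.02 (95% interval -0.27 to 0.24) and 0.07 (-0.14 to 0.28). Whether it differs from the other subunits was not tested.

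Calls of pathway genes were also counted with fewer libraries. With each of the 10 libraries left out in turn, a check chosen after seeing the data, limma called Fosl2 in 10 of 10 fits in both genotypes and Vcl in 10 of 10 in confined cells. Fos and Id2 were each called in 9 in WKO and 5 in WT, Jun in 9, Mmp14 in 8, Tln1 in 5, Relb in 3, Vcl in unconfined cells in 2 and Atp6v1h in 1. All of these differences kept their direction. The calls of Fos and Jun in WKO were lost without WKO unconfined replicate 3, and that of Id2 without WKO unconfined replicate 1.

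**Figure D5:**
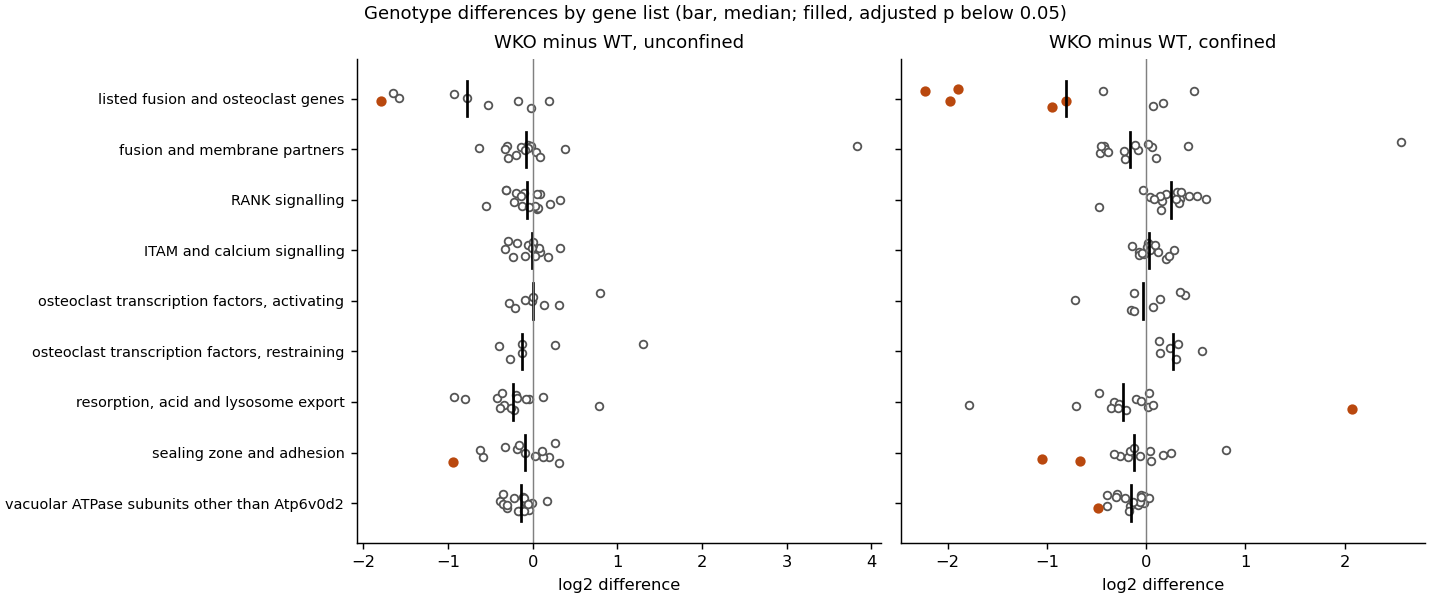
Log2 difference between WKO and WT for each tested gene of the listed fusion and osteoclast genes (top row) and of the 8 pathway lists, in unconfined (left) and confined (right) cells; bars are medians and filled points passed the limma threshold. The top row has medians of -0.78 and -0.81, and the medians of the pathway lists lie between -0.23 and 0.27. The genes of the top row were chosen on these contrasts, so the gap between rows is no test.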

How the data were processed

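For the 10 libraries the deposited values are normalized read counts, a signal scaled by 1 factor per library; per the submitters' processing notes, FastQC, Trim Galore and STAR were used with GRCm38 (mm10), while the counting tool, annotation and use of strand are not given in the sources used here. All values above 0 (100% per library, within 1e-06) were whole multiples of the smallest, so whole reads were recovered; the factors equal DESeq2 size factors. RNA input was 5 ng. Of 57010 identifiers, 33419 were 0 throughout and 12455 had a mean of at least 10 and were tested.

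Values were tested as log2(value + 1) with limma 3.58.1 (R 4.3.3), 1 mean per group over 10 libraries (6 residual degrees of freedom), with a mean-variance trend; p-values are Benjamini-Hochberg adjusted over all tested genes of a contrast, threshold 0.05. Fold changes on this scale understate changes of low genes. The fit was tested on simulated data first. Counting floors (3 reads, a normalized value of 2.35 to 3.59) cover counting error only.

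The 10 genes, pathway lists and markers were chosen with earlier results of these data known. Named are the 10 genes, pathway genes passing the threshold (at most 4 per list and contrast), Tnfrsf11a, Tnfsf11, Trem2, Itgav and Atp6v0d1, the 4 profiles nearest to Dcstamp and Tm4sf19, and Was; Calcr and the partner genes named as examples were added after their values were seen. Gene positions and exon lengths are from GENCODE M21 (GRCm38), promoters from RefSeq (GRCm38.p6). With blastn 2.17.0, no other gene covered 20% or more of the longest transcript of any of the 10 at 95% identity over at least 100 bases. Markers of osteoblasts, B-lineage, mast, dendritic and T or NK cells summed to at most 582, 200, 231, 162 and 18.2. Alternatives were edgeR 4.0.16, DESeq2 1.42.0, other scalings, offset, filter, weights and fits, and each library left out. The exact test planned for Oscar is not given, since every library was at or under the floor. The labels give no batch.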

Additional observations from a re-analysis of the deposited data

Results flagged for a closer look

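Itgb3 was singled out because its libraries moved in opposite directions in the 2 genotypes. All 3 confined WT libraries were above both unconfined WT libraries, and all 3 confined WKO libraries were below both unconfined WKO libraries. The interaction was -0.64 on the log2 scale (limma adjusted p 0.999), so it did not pass the correction. It kept its sign in all 19 alternatives, between -0.77 and -0.51. So did the interactions of Dcstamp, Ocstamp, Tm4sf19, Acp5 and Mmp9. The alternatives refit the same libraries, so a kept sign adds no support. The share of all tested genes whose libraries moved in opposite directions in this way was not counted.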

How the results depend on the processing

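Of 891 values of the listed genes under the alternatives, 872 kept the direction of the reported value, and no called value changed sign. The genotype counts below describe genes chosen on these contrasts and are no measure of stability. The number of listed genes called in confined cells was 2 without the mean-variance trend, 3 with only the groups compared and 3 with the replicate block, against 5 reported; with replicates left out it was 2 to 5. In unconfined cells it was 2 with DESeq2, array weights or only the groups compared and 3 with the replicate block, against 1, and 1 to 2 with replicates left out. After confinement it was 3 in WKO with array weights, against 0, and otherwise 0. Without WT confined replicate 2, Ctsk (-0.85), Mmp9 (-1.80) and Itgb3 (-0.80) no longer passed, without replicate 3 Ctsk (-0.99) and Mmp9 (-1.91), and without replicate 6 Ctsk (-0.99) and Itgb3 (-0.72). Over all tested genes, 58, 80 and 141 were called in confined cells without WT confined replicates 2, 3 and 6, against 322 reported. The cause was not tested.

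Over all genes, the number called between genotypes in unconfined cells was 179 with DESeq2, 166 with array weights, 10 without the filter, 4 without the trend, 189 with only the groups compared and 245 with the replicate block, against 18, and 4 to 141 with replicates left out. In confined cells it was 775 with DESeq2, 1948 with array weights, 186 without the filter, 53 without the trend and 90 with only the groups compared, against 322, and 58 to 701 with replicates left out. For confinement in WT it was 332 with DESeq2, 419 with array weights, 20 without the trend, 455 with only the groups compared and 216 with the replicate block, against 144, and 22 to 397 with replicates left out. In WKO it was 484, 1735, 45 and 33 for the first 4 of these settings, against 214, and 43 to 1043 with replicates left out. The interaction had 0 throughout. Deviations of same-numbered libraries from their group means had r between -0.11 and 0.08. In groups of 2 libraries these deviations mirror each other, so replicates 1 and 3 gave the same r of 0.03 between the unconfined groups. With so few separate values they cannot settle whether the numbers are pairs. The reported fit did not take them as pairs. With 2 or 3 libraries per group and under 30 reads, the level of Ocstamp was not resolved.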
